A study of Homo sapiens with 12 samples.

Results

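The suppressors of cytokine signalling (SOCS) family was examined in macrophages of the THP-1 line, which derives from a human monocytic leukaemia. The cells had been transfected with a miR-122-5p mimic, a synthetic copy of that microRNA, or with a control mimic. Its members were the 8 genes SOCS1 to SOCS7 and CISH, taken by symbol from the 58735 genes of the deposited count table; each matched 1 gene, and all 8 were among the 15471 genes with enough counts to be tested. Both groups, of 6 libraries each, received 30 nM of mimic for 24 h, a rest, and then 4 h of lipopolysaccharide (LPS), so every library is from LPS-stimulated cells and no unstimulated level was measured. The labels name 1 cell line and do not say whether the 6 libraries of a group were separate cultures; the p-values rest on the spread between libraries alone, and that spread may be technical.

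SOCS proteins are feedback brakes on cytokine receptors: cytokines activate JAK kinases and STAT transcription factors, STATs switch on SOCS genes, and the SOCS proteins then shut the receptor down. Each carries an SH2 domain, which binds phosphorylated tyrosines, and a SOCS box, which recruits elongins and a cullin to form a ubiquitin ligase. SOCS1 and SOCS3 can also block JAK catalysis directly. In macrophages SOCS1 is best known for restraining interferon and Toll-like receptor signals, and SOCS3 for restraining IL-6 signalling through gp130. CISH and SOCS2 are classical STAT5-induced brakes on growth hormone and other STAT5-using cytokines, whereas SOCS4 to SOCS7 have long N-terminal regions and are linked more to growth factor and insulin receptors.

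The mature miR-122-5p (RefSeq, GRCh38.p14) is shown because the mimic carries this microRNA, with its seed, bases 2 to 8, in capitals.
hsa-miR-122-5p: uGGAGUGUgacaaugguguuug
The longest annotated 3′ UTRs of the 8 members (GENCODE 29) held no 8mer (ACACTCCA), 7mer-m8 (ACACTCC) or 7mer-A1 (CACTCCA) match to that seed. Only the shortest match, the 6mer CACTCC, was found, once in SOCS4 and at 2 places in SOCS7; the capitals below mark it in its local context.
SOCS4: acatactccCACTCCcatttttttcta
SOCS7, first match: atcccgtccCACTCCcatctacctccc
SOCS7, second match: gcctgctctCACTCCtccatctctggt
The 12892 tested genes with an annotated 3′ UTR were classed by the best match in the longest one. It was an 8mer in 3.50%, a 7mer-m8 in 6.27%, a 7mer-A1 in 15.96% and no more than a 6mer in 14.2%. A shorter SOCS5 UTR holds 1 match, a 7mer-A1, that the longest one lacks. A match is a description of the letters and does not show binding.

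The promoters of SOCS1 and CISH are shown because they carry the letters that interferon- and STAT-activated factors are known to read. They run from 250 bases before to 50 after the RefSeq start (GRCh38.p14, minus strand, 5′ to 3′). Capitals mark TTCNNNGAA, the palindromic STAT element, in CISH, and, in SOCS1, GAAA, any 2 bases and GAAA again, an interferon regulatory factor element; both motifs were searched on both strands, and they do not overlap each other here.
CISH, chr3:50611725-50612024: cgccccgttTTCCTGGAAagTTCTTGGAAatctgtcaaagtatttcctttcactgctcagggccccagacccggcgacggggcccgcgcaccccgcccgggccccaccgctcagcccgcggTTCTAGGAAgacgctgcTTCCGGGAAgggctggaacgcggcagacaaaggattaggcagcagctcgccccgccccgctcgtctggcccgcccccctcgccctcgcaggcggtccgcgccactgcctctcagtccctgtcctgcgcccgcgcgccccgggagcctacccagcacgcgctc
SOCS1, chr16:11256155-11256454: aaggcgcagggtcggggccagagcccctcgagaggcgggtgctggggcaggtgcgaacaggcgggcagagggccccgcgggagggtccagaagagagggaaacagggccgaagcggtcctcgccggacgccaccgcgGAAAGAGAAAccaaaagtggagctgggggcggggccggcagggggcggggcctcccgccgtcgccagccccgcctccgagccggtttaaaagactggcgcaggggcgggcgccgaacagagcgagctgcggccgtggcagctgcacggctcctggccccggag
CISH held 4 STAT elements, TTCCTGGAA, TTCTTGGAA, TTCTAGGAA and TTCCGGGAA. At least 1 was present in 7.66% of 35116 RefSeq promoter windows of this length, and 4 or more in 7 of them. SOCS1 held 1 interferon regulatory factor element, GAAAGAGAAA, a motif found in 3.57% of windows. Neither motif was found in the windows of SOCS3, SOCS4 or SOCS6. The RefSeq starts of the 2 SOCS3 windows lie 410 and 848 bases from the start of the GENCODE gene, which neither window covers. No window was available for SOCS2, SOCS5 and SOCS7, so they were not searched.

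In the miR-122-5p group SOCS3 and SOCS7 were higher, and SOCS4, SOCS5, SOCS6 and CISH lower, than in the control group (edgeR quasi-likelihood test, Benjamini-Hochberg adjusted p under 0.05 over all tested genes). SOCS1 and SOCS2 did not pass. Changes of the called members were moderate, from 1.31-fold higher for SOCS3 to 1.77-fold lower for CISH. These 6 calls among 8 members stand against 50.5% of all tested genes called, 24.3% higher and 26.2% lower, so a call by itself does not set a member apart. As counted, the family's median log2 fold change was -0.37, beside 0.01 for all tested genes. Levels are in CPM, a gene's counts brought to a common library size with TMM factors, and a log2 fold change is miR-122-5p over control.

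**Figure D1:**
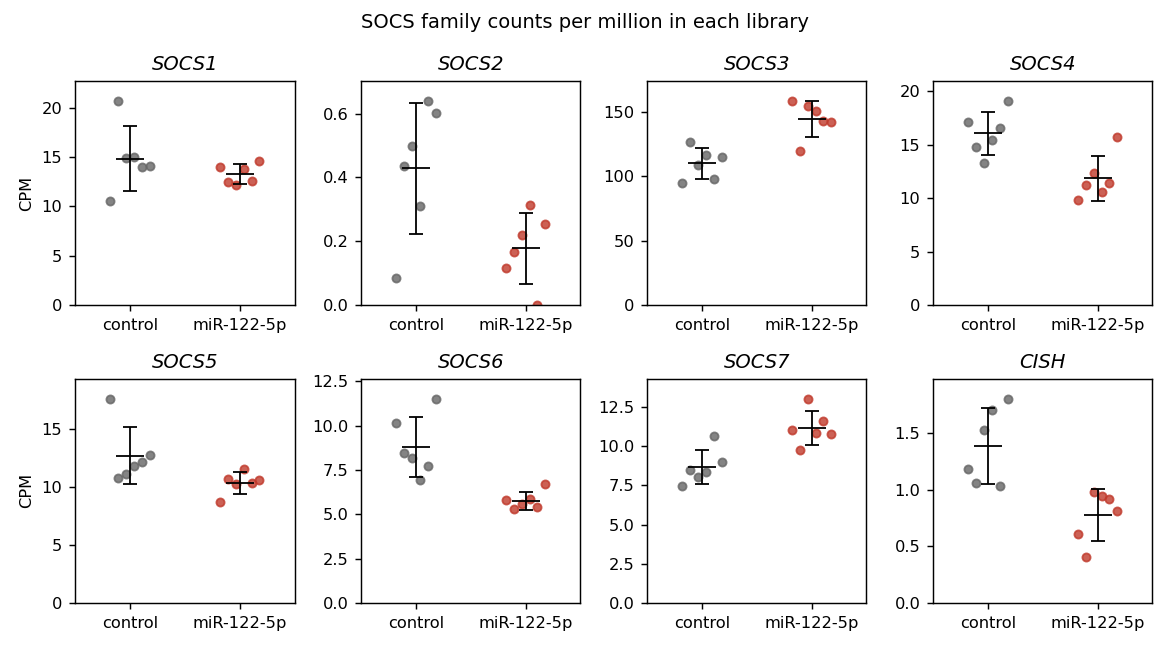
CPM (linear axis from 0) of the 8 members in each library, control mimic in grey and miR-122-5p in red, with the mean and SD of 6 libraries as bars. Of the 8 members the groups do not overlap for SOCS6 and CISH, beside 29.5% of all tested genes. For SOCS3 5 of 6 miR-122-5p libraries lie above the highest control at 126.8 CPM.

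The samples carry a transcriptome-wide trend that these calls have to be read beside. Log2 CPM relative to the mean library rose with transcript GC content in all 6 miR-122-5p libraries, by 0.0336 to 0.229 per 10 percentage points, while the slopes of the controls were -0.318 to 0.0119. The groups did not overlap in this slope. The longest annotated transcripts of the members span 35.3% GC (SOCS4) to 69.1% GC (SOCS1). The called members of lowest GC content fell while SOCS3, at 60.0%, rose. Not all members followed the trend: CISH, at 56.7%, was called lower, and SOCS1, of the highest GC content, was not called. Each member is therefore given as counted and after trend removal, in which every library was corrected for its trends with GC content and length; 46.8% of all genes were then called, 23.3% higher and 23.5% lower, beside 1 member higher and 3 lower. A fit that takes the GC slope of a library as covariate, which called 19.4% of all genes (7.22% higher, 12.2% lower), is given beside it and called 0 members higher and 1 lower. The family's median log2 fold change was -0.17 after trend removal and -0.12 with the slope covariate. Those of all tested genes were 0.03 and -0.007. Since the slope separates the groups, GC trend and mimic cannot be told apart fully.

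**Figure D2:**
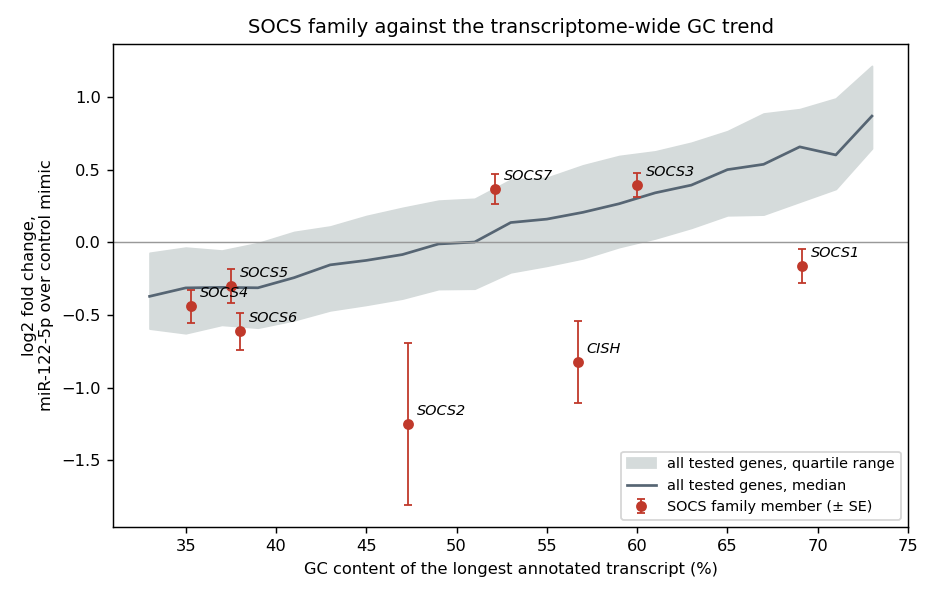
Log2 fold change (vertical axis, miR-122-5p over control) against GC content of the longest annotated transcript in percent (horizontal axis): the line and band are the median and quartiles of all tested genes in bins of 2 percentage points, and red points with SE bars are the members. SOCS4, SOCS5 and SOCS3 lie close to the median of genes of like GC content, and SOCS1, CISH, SOCS2 and SOCS6 lie below the lower quartile.

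SOCS3, on chromosome 17 (78356778 to 78360077, hg38), was the most abundant member. It ranged from 119.4 to 158.2 CPM with miR-122-5p (median 147.0) and from 95.2 to 126.8 with the control (median 111.8). All but 1 miR-122-5p library exceeded every control. The means were 144.6 ± 13.9 and 110.1 ± 11.98 CPM (SD, n = 6), a log2 fold change of 0.39 ± 0.08 (SE; adjusted p = 0.000351). Tested genes within 2 percentage points of its GC content had a median of 0.30. After trend removal SOCS3 was at 0.12 ± 0.07 (adjusted p = 0.162) and with the slope covariate at 0.16 ± 0.13 (adjusted p = 0.448), so the call ended under both.

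SOCS1, on chromosome 16 (11254405 to 11256200), was called only once the GC trend was taken into account. Its miR-122-5p libraries lay between 12.1 and 14.6 CPM (median 13.2), all inside the control range of 10.5 to 20.6 (median 14.5). As counted, the log2 fold change was -0.16 ± 0.12 (13.3 ± 1.00 against 14.8 ± 3.27 CPM, n = 6, adjusted p = 0.275), which did not pass. The 193 genes of like GC content had a median of 0.65. SOCS1 was called lower after trend removal (-0.79 ± 0.10, adjusted p = 6.13e-07) and with the slope covariate (-0.61 ± 0.18, adjusted p = 0.0170). The control libraries that set the range were number 1, the lowest for SOCS1 and for SOCS3 and the one of lowest GC slope, and number 2, the highest for both genes and of the highest GC slope among controls.

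The ratio of both JAK-blocking members within a library, which no scaling between libraries affects, separated the groups. The log2 ratio of SOCS1 to SOCS3 was -3.66 to -3.25 in the miR-122-5p libraries and -3.17 to -2.62 in controls, without overlap. The difference of -0.53 had a two-sided exact permutation p of 0.00216, the smallest that 6 against 6 can give (0.00433 after Benjamini-Hochberg adjustment over 4 pairs), and all 6 miR-122-5p libraries lay below every control. It was -0.91 after trend removal (adjusted exact p = 0.00866). SOCS1 was thus lower relative to SOCS3 with miR-122-5p as counted and after trend removal. The ratio was not refitted with the slope covariate. Taken singly, 29.5% of all tested genes did not overlap between the groups. The share of all gene pairs whose ratio separates the groups was not computed.

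**Figure D3:**
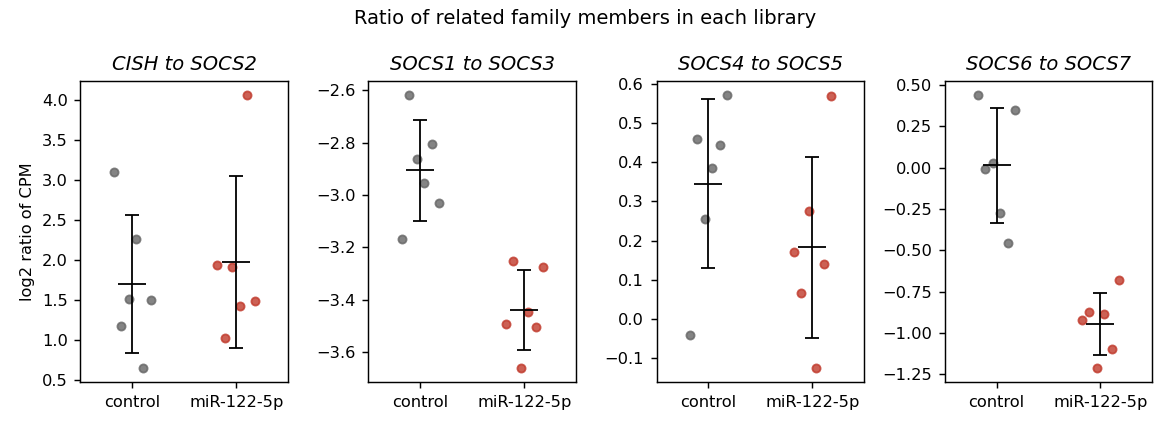
Log2 ratio of CPM between related members (vertical axes, each with its own range) in each library, control mimic in grey and miR-122-5p in red, with mean and SD bars of 6 libraries. SOCS1 to SOCS3 and SOCS6 to SOCS7 separate the groups, and CISH to SOCS2 and SOCS4 to SOCS5 overlap.

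CISH, on chromosome 3 (50606490 to 50611831), was scarce, with 12 to 66 counts a library. It lay between 0.403 and 0.984 CPM with miR-122-5p (median 0.868) and between 1.03 and 1.80 with the control (median 1.36). The groups did not overlap. They did not overlap for 29.5% of all tested genes, 13.4% higher and 16.1% lower with miR-122-5p. The log2 fold change was -0.82 ± 0.28 (adjusted p = 0.0180), beside a median of 0.21 as counted for genes of like GC content. After trend removal CISH was at -0.99 ± 0.28 (adjusted p = 0.00590). With the slope covariate the estimate was -0.69 ± 0.54 (adjusted p = 0.432), and without a low-count filter the adjusted p was 0.0558. Exons of MAPKAPK3 on the opposite strand overlap 4.26% of its exons. MAPKAPK3 was far more abundant (104.8 against 76.2 CPM) and higher with miR-122-5p (0.46 ± 0.08, adjusted p = 2.72e-05), the opposite direction to CISH.

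SOCS2, on chromosome 12 (93569814 to 93583487), was barely detected, with 36 counts over the miR-122-5p libraries and 87 over the controls. It lay between 0 and 0.314 CPM (median 0.193) and between 0.0867 and 0.638 (median 0.467). The single library at 0, miR-122-5p library 5, allows up to 0.0860 CPM by counting error. The groups overlapped, with 5 of 6 miR-122-5p libraries inside the control range, and the log2 fold change of -1.25 ± 0.56 was not called (adjusted p = 0.0680); without control library 1, the lowest control, it was -1.46 (adjusted p = 0.0281). The log2 ratio of CISH to SOCS2 differed by 0.28 between groups (two-sided exact permutation p = 0.645), not detectable at these counts. Exons of SOCS2-AS1 on the opposite strand overlap 4.09% of the exons of SOCS2, and that antisense gene had 0 counts in 11 of 12 libraries.

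As counted, the members with long N-terminal regions went different ways, though with the slope covariate none of them was called. SOCS6, on chromosome 18 (70288901 to 70330200) and known to bind the insulin receptor, ranged from 5.31 to 6.70 CPM with miR-122-5p (median 5.68) and from 6.92 to 11.5 with the control (median 8.31). The groups did not overlap, as was so for 29.5% of all tested genes (16.1% lower with miR-122-5p). The log2 fold change was -0.61 ± 0.13 (adjusted p = 0.000391). Genes of like GC content (38.0%) had a median of -0.31, and after trend removal the fall was -0.27 ± 0.11 (adjusted p = 0.0482). With the slope covariate it did not pass (-0.24 ± 0.21, adjusted p = 0.492).

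SOCS7, its closest relative, lies on chromosome 17 (38352228 to 38405593). It was at 9.78 to 13.0 CPM with miR-122-5p (median 10.9) and at 7.46 to 10.7 with the control (median 8.43), and 5 of 6 miR-122-5p libraries exceeded every control. The rise of 0.37 ± 0.11 (adjusted p = 0.00620) was nearly the same after trend removal (0.35 ± 0.10, adjusted p = 0.00746). With the slope covariate it was 0.42 ± 0.20 (adjusted p = 0.156). The log2 ratio of SOCS6 to SOCS7 was -1.21 to -0.68 in the miR-122-5p libraries and -0.46 to 0.44 in controls. It differed by -0.96 (two-sided exact permutation p = 0.00216, 0.00433 after adjustment over 4 pairs), and by -0.61 after trend removal (adjusted exact p = 0.0216). The pair thus changed unequally as counted and after trend removal. How often the ratios of other gene pairs separate the groups was not computed.

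SOCS4, on chromosome 14 (55027230 to 55049488), and SOCS5, on chromosome 2 (46698952 to 46780245), are both linked to the epidermal growth factor receptor. SOCS4 was at 9.80 to 15.7 CPM with miR-122-5p (median 11.3) and at 13.3 to 19.0 with the control (median 16.02), a log2 fold change of -0.44 ± 0.11 (adjusted p = 0.00271). SOCS5 was at 8.70 to 11.6 CPM (median 10.4) against 10.7 to 17.6 (median 12), a change of -0.30 ± 0.12 (adjusted p = 0.0367). In each, 5 of 6 miR-122-5p libraries lay below every control. Genes of like GC content had medians of -0.34 and -0.31. After trend removal SOCS4 was at -0.064 ± 0.089 (adjusted p = 0.593) and SOCS5 at 0.050 ± 0.092 (adjusted p = 0.689), so both calls ended and SOCS5 turned its sign. With the slope covariate both estimates were positive (0.0087 ± 0.168, adjusted p = 0.982, and 0.20 ± 0.17, adjusted p = 0.468). The SOCS5 call was also lost without any 1 of 7 single libraries, among them control library 1, its highest (-0.18, adjusted p = 0.135; the other 6 had adjusted p from 0.0528 to 0.0925). SOCS5 shares 2.11% of its exons with LINC01118 on the same strand, which had 5 counts over the miR-122-5p libraries and 11 over the controls. The log2 ratio of SOCS4 to SOCS5 differed by -0.16 (two-sided exact permutation p = 0.232).

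**Figure D4:**
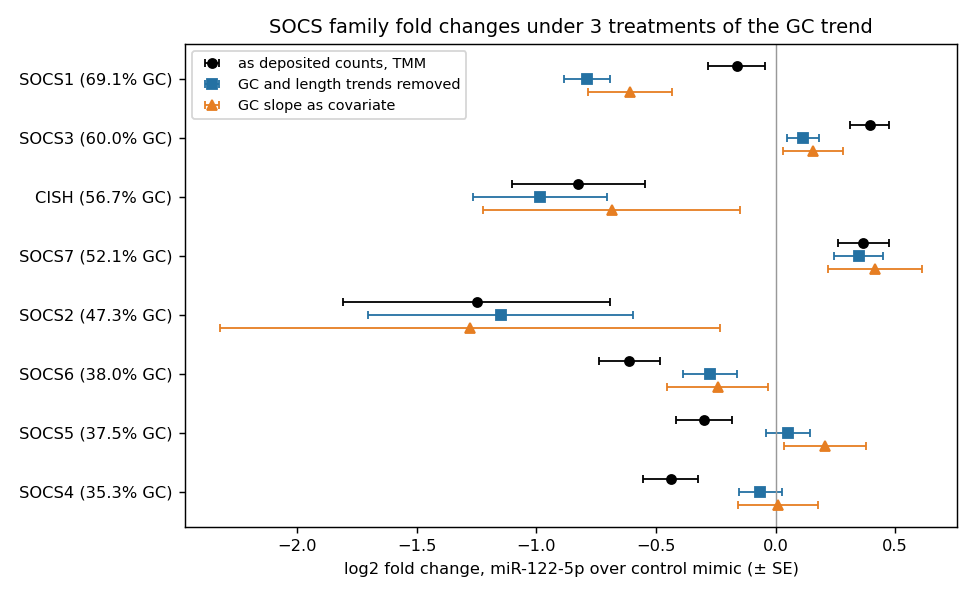
Log2 fold change with SE (horizontal axis, miR-122-5p over control) of each member, ordered by transcript GC content, as counted (black), after trend removal (blue) and with the slope covariate (orange). SOCS1 moves from -0.16 to -0.79 and SOCS3 from 0.39 to 0.12, while SOCS7 goes from 0.37 to 0.35 with trend removal.

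Per kilobase of exon, SOCS3 exceeded all the other members in both groups. In controls it stood at 40.3 ± 4.38 CPM per kb, SOCS1 at 8.26 ± 1.82, SOCS4 at 2.28 ± 0.281, SOCS5 at 1.67 ± 0.328, SOCS6 at 1.47 ± 0.282, SOCS7 at 1.01 ± 0.128, CISH at 0.271 ± 0.0658 and SOCS2 at 0.0632 ± 0.0302 (SD, n = 6). Neighbours in this order overlapped from SOCS4 through SOCS7 and were otherwise separate. With miR-122-5p the order was the same except that SOCS7 (1.30 ± 0.125) stood above SOCS6 (0.965 ± 0.0838), and these 2 did not overlap; SOCS4 overlapped SOCS5 and SOCS5 overlapped SOCS7. SOCS3 made up 80.4 ± 1.62% of the summed level of the family in the miR-122-5p group against 72.8 ± 1.17% in controls, and SOCS1 11.3 ± 0.986% and 14.8 ± 1.96%. Without SOCS3 the summed level was 12.86 ± 0.7999 against 15.0 ± 1.47 CPM per kb. These levels and shares are as counted, with no correction for the GC trend. The SOCS3 call ended under both treatments of that trend. With the length of the longest transcript in place of all exons, SOCS5 had rank 3 and SOCS4 rank 4 in both groups.

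The counts of called genes around the family are given beside the 26.2% lower and 24.3% higher of all tested genes, with no test of a difference from that share. Of 15 tested JAK-STAT cytokine ligands 8 were lower and 5 higher (median -0.46), with interferon beta, IFNB1, at -3.90 ± 0.12, the type III interferon IFNL1 at -3.70 ± 0.15 and IL27 at -3.17 ± 0.18. Of 25 tested receptor chains 16 were lower and 3 higher (median -0.34). The smallest p-values were those of IL10RA, the IL-10 receptor chain (-1.55 ± 0.08), IL3RA (-1.58 ± 0.09) and IL15RA (-1.75 ± 0.10). Of 10 tested JAK and STAT genes 6 were lower and 2 higher (median -0.60). The kinase JAK2, which SOCS1 and SOCS3 inhibit, fell from 135.8 ± 17.6 to 28.5 ± 7.22 CPM (-2.26 ± 0.13). STAT3, which carries IL-6 signals, was at -0.87 ± 0.06. Each of these 8 genes was also lower after trend removal and with the slope covariate. STAT5A and STAT5B were named after their values were seen, because CISH and SOCS2 respond to STAT5. STAT5A did not pass (0.19, adjusted p = 0.0917). STAT5B was higher (0.21, adjusted p = 0.0281), though not with the slope covariate (adjusted p = 0.0964). These are RNA levels only, and a part of STAT5 in the CISH and SOCS2 levels was not tested.

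Among 12 other brakes on the pathway 6 fell and 1 rose (median -0.16). USP18, which dampens the interferon receptor, was at -1.30 ± 0.08, the phosphatase PTPRC (CD45) at -1.21 ± 0.08 and the phosphatase PTPN2, which acts on JAK kinases, at -0.75 ± 0.09. Of 9 parts of the ligase that the SOCS box recruits 4 were lower and 2 higher (median 0.09). As counted, the shares of all tested genes are 26.2% and 24.3%. With the slope covariate 1 part was lower and 0 higher, beside 12.2% and 7.22% of all tested genes in that fit. CUL2 was at -0.98 ± 0.09, the NEDD8-conjugating enzyme UBE2F at -0.82 ± 0.15 and elongin B, ELOB, at 0.57 ± 0.09. CUL5, the cullin best known to pair with the SOCS box and named after its value was seen, was at -0.53 (adjusted p = 0.000121). It was at -0.34 (adjusted p = 0.177) with the slope covariate, where the 1 part still lower was CUL2. CUL5 was at -0.16 (adjusted p = 0.145) after trend removal. The ELOB call ended there as well (0.17, adjusted p = 0.0992), and other genes overlap 16.8% of the exons of ELOB and 16.2% of those of UBE2F, which did not pass with the slope covariate (-0.075, adjusted p = 0.850).

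STAT-responsive genes outside the family rose as counted in 6 of 14 and fell in 1 (median 0.18), but after trend removal 3 were higher and 4 lower (median 0.01). The kinase PIM1 (0.40 ± 0.07) and MYC (0.68 ± 0.10) were higher and the survival gene MCL1 (-0.37 ± 0.06) lower, also after trend removal. With the slope covariate PIM1 (adjusted p = 0.0349) passed and MYC (0.0734) and MCL1 (0.0710) did not. Of the 4 SPRY-domain proteins with a SOCS box, SPSB1 was lower (-0.39 ± 0.08) and the others were not called, among them SPSB2 (0.56 ± 0.27) and SPSB3 (1.28 ± 0.73), which had under 3 CPM in both groups. Other genes overlap 66.95% of the exons of SPSB3. Of 7 tested partners of SOCS proteins outside the cytokine receptors 3 were higher and 3 lower (median 0.07); insulin receptor substrate 1, IRS1, was at 0.56 ± 0.13, the insulin receptor INSR at 0.51 ± 0.12 and VAV1 at 0.33 ± 0.08. VAV1 did not pass after trend removal (adjusted p = 0.132), nor IRS1 with the slope covariate (adjusted p = 0.534).

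**Figure D5:**
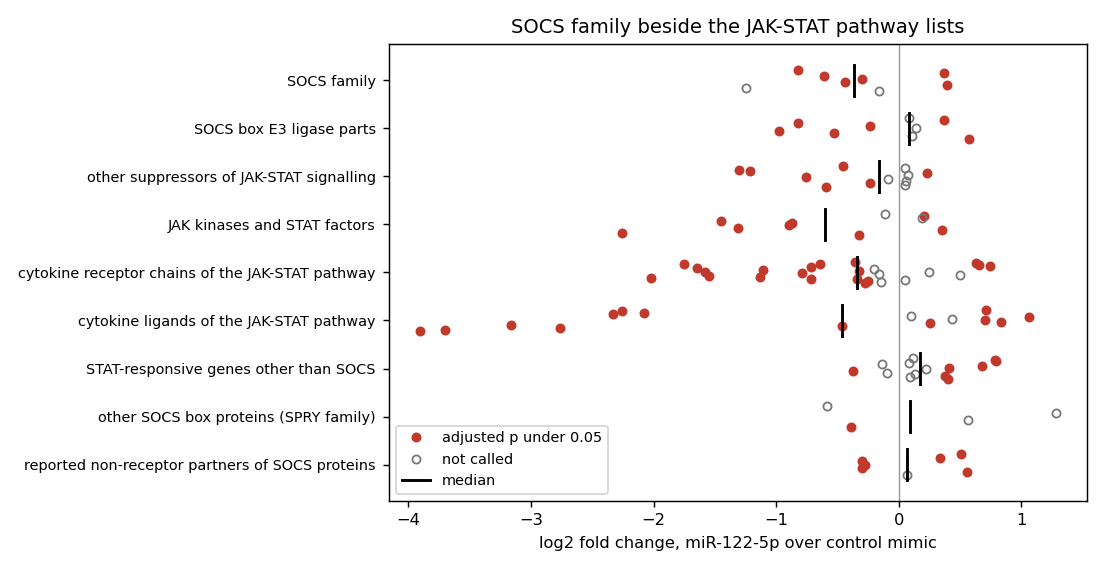
Log2 fold change (horizontal axis, miR-122-5p over control) of each tested gene in the SOCS family and 8 JAK-STAT lists, filled red where the adjusted p was under 0.05, with black bars for medians. The SOCS family spans -1.25 to 0.39, while JAK and STAT genes reach -2.26 and cytokine ligands -3.90.

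Libraries were also compared for what moved with the most abundant members once each group's mean was subtracted, over 12 libraries and 8333 genes. Among the genes most like SOCS3 were NKG7 (Pearson r = 0.92) and BRPF1 (0.86). Those most like SOCS1 were RIPK3 (0.94), H2BC12 (0.94) and MRTFA (0.92), and those most like SOCS4 were ZNF731P (0.94), ATF7IP (0.92) and EXOSC8 (0.91). These r describe libraries that share depth and GC trends and carry no test.

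Totals ran from 29473750 to 39468157 counts a library. Of 10 macrophage and monocyte markers 8 were tested, led by CSF1R (443.3 CPM in the miR-122-5p group, 568.6 in controls). The next most abundant went the other way, ITGAM (440.3 against 385.4 CPM) and SPI1 (265 against 234.7). The summed level of the 10 markers was 1152 to 1327 CPM with miR-122-5p and 1189 to 1455 in controls. CD68 and MRC1 were under the filter. CD3D, CD3E and EPCAM had 0 counts in every library. Summed markers of other cell types reached at most 29.3 CPM, for the T cell list, through TRAC. The hepatocyte list was at 11.2 to 13.9 CPM in the miR-122-5p group against 6.44 to 8.63 in controls, through APOA1, with ALB and TTR under 0.2 CPM; its part in the results was not tested. In bulk RNA, fewer cells of a type and less RNA per cell cannot be told apart.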

How the data were processed

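RNA from 12 libraries of LPS-stimulated THP-1 macrophages, extracted with Trizol and prepared with an NEBNext Ultra kit per the labels' protocols, was analysed from the raw read counts per gene that the authors deposited, with no normalization. Alignment tools and build named in the submitters' processing notes are HISAT2 2.0.5, hg38 and, for counting, featureCounts 1.5.0-p3; the strand setting is not given in the sources used here, so overlapping antisense genes may share reads. All gene identifiers were found in GENCODE 29. The members, lists and motifs were chosen with earlier results of these data known.

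Genes passing filterByExpr were scaled by TMM and compared by the quasi-likelihood test of edgeR 4.0.16 (R 4.3.3), calling adjusted p-values (Benjamini-Hochberg, 15471 tested genes) under 0.05. Log2 CPM used a prior count of 2. Alternatives were DESeq2 1.42.0, limma-voom (limma 3.58.1), other scalings and filters, the replicate block, each library left out, trend removal by offsets from natural splines (4 degrees of freedom) on transcript GC content and length (6 tested genes had no transcript sequence and stayed uncorrected), and the GC slope as covariate. The edgeR and permutation tests were checked on simulated data. Replicate numbers did not pair the libraries. Pairs of libraries in a group had a chi-square of at least 7.89 per degree of freedom, beyond sampling noise, so none was a copy. Totals of 29473750 to 39468157 counts give floors from 0.0760 to 0.102 CPM (3 counts, counting error only). All members were named, with the 3 genes of smallest p in each list and the 3 most like each of the 3 most abundant members. Other genes are named as chosen after their values were seen, or as markers, exon neighbours or genes whose count was 0. Some genes that this rule names are not reported here.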

Additional observations from a re-analysis of the deposited data

Results flagged for a closer look

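SOCS5 was far higher in control library 1 than in the other controls, at 17.6 CPM against 12.8 for the next. CISH stood far higher relative to SOCS2 in miR-122-5p library 5 than in the others of its group, with a log2 ratio of 4.06 against 1.94, and that library had 0 SOCS2 counts. In 24 groups of values examined for such gaps, chance gives about 1 in 20.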

How the results depend on the processing

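The 2 treatments of the GC trend moved more members than any other alternative. After trend removal SOCS1 passed (-0.79), SOCS3 (0.12) and SOCS4 (-0.064) did not, and SOCS5 turned to 0.050; 1 member was higher and 3 lower. With the GC slope covariate SOCS1 passed (-0.61), SOCS3 (0.16), SOCS6 (-0.24), SOCS7 (0.42) and CISH (-0.69) did not, SOCS4 (0.0087) and SOCS5 (0.20) turned, and 0 members were higher and 1 lower. These refits cannot show whether the trend is technical; the cause was not tested. SOCS5 also missed the threshold with library totals (-0.26), no low-count filter (-0.28), the replicate block (-0.28) and an adjusted p under 0.01 (-0.30), and CISH with no low-count filter (-0.80) and under 0.01 (-0.82). Members lower then numbered 2 with no filter and 2 under 0.01, against 4. The shares of all genes called under those settings are not given, so the drop is not read as particular to the family. SOCS2 was left untested by the filter of 1 CPM in 6 libraries.

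Leaving out each library, the fold changes ran from -0.24 to -0.04 for SOCS1, -1.47 to -0.98 for SOCS2, 0.36 to 0.45 for SOCS3, -0.53 to -0.38 for SOCS4, -0.33 to -0.18 for SOCS5, -0.67 to -0.51 for SOCS6, 0.33 to 0.43 for SOCS7 and -0.90 to -0.69 for CISH. The numbers of members ran from 2 to 2 higher and 3 to 4 lower. Ratio differences ran from -0.59 to -0.47 for SOCS1 to SOCS3, -1.05 to -0.87 for SOCS6 to SOCS7, -0.24 to -0.10 for SOCS4 to SOCS5 and -0.14 to 0.56 for CISH to SOCS2, which turned to -0.14 without miR-122-5p library 5.

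Same-numbered libraries deviated together with correlations from -0.105 to 0.066, so the numbers were not taken as pairs. Under the replicate block, an exact sign-flip test over 6 pairs, SOCS1 to SOCS3 (-0.53) and SOCS6 to SOCS7 (-0.96) had an adjusted p of 0.0625, the smallest this test gives for 2 of 4 pairs. JAK and STAT genes higher numbered 1 and SPRY-domain genes higher 1 under the block.

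List counts that moved by over 1.5 times with trend removal were 2 ligase parts lower, 1 JAK or STAT gene higher, and 3 STAT-responsive genes higher and 4 lower. Those that did so with the slope covariate were 0 ligase parts higher and 1 lower, 0 JAK or STAT genes higher, 1 receptor chain higher, 3 ligands higher, 2 STAT-responsive genes higher and 1 partner lower. Of all tested genes, trend removal called 23.3% higher and 23.5% lower, and the slope covariate 7.22% higher and 12.2% lower. Under an adjusted p of 0.01, 0 other suppressors and 1 JAK or STAT gene were higher. SPRY-domain genes higher numbered 2 with limma-voom and 1 with no filter. Without single libraries, JAK or STAT genes higher ran from 1 to 3 and SPRY-domain genes higher from 0 to 2; it was 1 when library 6 of either group was left out, and 2 SPRY-domain genes were higher without control library 3. With the longest transcript the ranks of SOCS4 and SOCS5 became 4 and 3. With any annotated UTR, SOCS5 had 1 seed match.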
